A study of Zea mays with 6 samples.

Results

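Maize carries several genes for enzymes that cut indole-3-glycerol phosphate and release indole. For Igl (GRMZM2G046163) this function is taken from its name alone and was not tested. With igl1 (GRMZM2G046191) and bx1 (GRMZM2G085381) it makes up the 3 genes followed here, called lyase genes below. They were chosen by gene ID from the 39628 gene models counted in each library, with the difference between the lines already known, so their levels and fold changes are given as a description. Calls of the fit across all genes are stated for them below and are no independent test. The libraries came from leaves of field-grown maize at leaf stage 6, 3 from the wild-type inbred line Q319 and 3 from a transgenic line called L100. The labels do not name the transgene, its promoter or the number of independent events behind L100, so no targeted gene could be checked, and they do not say that the 3 libraries of a line came from separate plants.

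Indole is made in plastids from indole-3-glycerol phosphate by proteins related to the alpha subunit of tryptophan synthase. The housekeeping alpha subunit, encoded by TSA, hands indole directly to the beta subunit, which turns it into tryptophan. The product of bx1 works without a beta subunit and opens the pathway to benzoxazinoids, defence compounds that grasses build from indole, whereas indole-3-glycerol phosphate lyase releases indole as a volatile and is known in maize for its induction by herbivores and jasmonate. In the table of RefSeq names, igl1 and Igl follow each other on chromosome 1 with no other gene between them, bx1 lies on chromosome 4 directly before bx2, and TSA lies on chromosome 7. That table is of a later genome build than the files, so no coordinates are given. Protein and promoter sequences were not used here, so how similar the copies are, and how many fragments could have been assigned to the wrong copy, was not tested.

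Library totals ran from 6458248 to 9922468 counts. Wild type replicate 3 stood apart from the other libraries on principal component 1 (coordinate -116, against -35.5 to 60.9 for the rest; 45.5% of the variance). The 6 mesophyll marker IDs, with pep1 and pdk1 among them, summed to 46980 to 76421 CPM in wild type and 83687 to 101361 CPM in L100, without overlap (CPM are counts scaled to a common library size with factors from the trimmed mean of M values). Of these 6, 5 had a higher and 1 a lower point estimate for L100 (3 and 3 with scaling by total counts), none was called by edgeR and none had an unadjusted p under 0.05. The 3 bundle sheath markers summed to 12044 to 19930 CPM in wild type and 18647 to 23521 CPM in L100, which overlapped. The mesophyll sum thus separated the lines, as igl1 and Igl did below in the other direction, and its part in their results was not tested. Most of that sum came from pep1 (GRMZM2G083841; mean 24190 CPM in wild type, 37167 in L100) and pdk1 (GRMZM2G306345; 34146 and 49757 CPM). Both separated the lines, whereas the groups overlapped for every other mesophyll ID, mdh6 among them (3020 and 3520 CPM). Of the defining genes of other tissues, all 6 endosperm genes and the root gene rtcs1 were at 0 in every library, and the 5 meristem genes summed to 2.46 to 4.22 CPM. The other root gene, rth3, had 6.79 CPM in wild type replicate 3 and 0.616 to 1.14 CPM elsewhere, and its part in the results below was not tested.

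The gene igl1 was read in all 3 wild-type libraries and almost absent from L100. Wild type replicates 1 to 3 gave 47, 178 and 274 raw counts, and the L100 replicates, in the same order, gave 3, 1 and 3. On the CPM scale these were 4.83, 22.7 and 22.96 in wild type and 0.420, 0.162 and 0.483 in L100. The groups did not overlap, and the lowest wild-type library, replicate 1, lay well above the highest L100 library. The 7 counts left in L100 were close to the floor of 3 counts per library, which is 0.420 to 0.487 CPM there, so the L100 level is known only within wide limits. In whole leaves, fewer cells that express a gene and less RNA per cell cannot be told apart. With counts summed over libraries, wild type exceeded L100 by 47.2-fold, with a 95% exact interval of 22.7 to 118 that covers counting error only. The fitted log2 fold change was -5.50 ± 0.77 (SE, edgeR), and 54 of 18702 tested genes had a lower one.

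**Figure D1:**
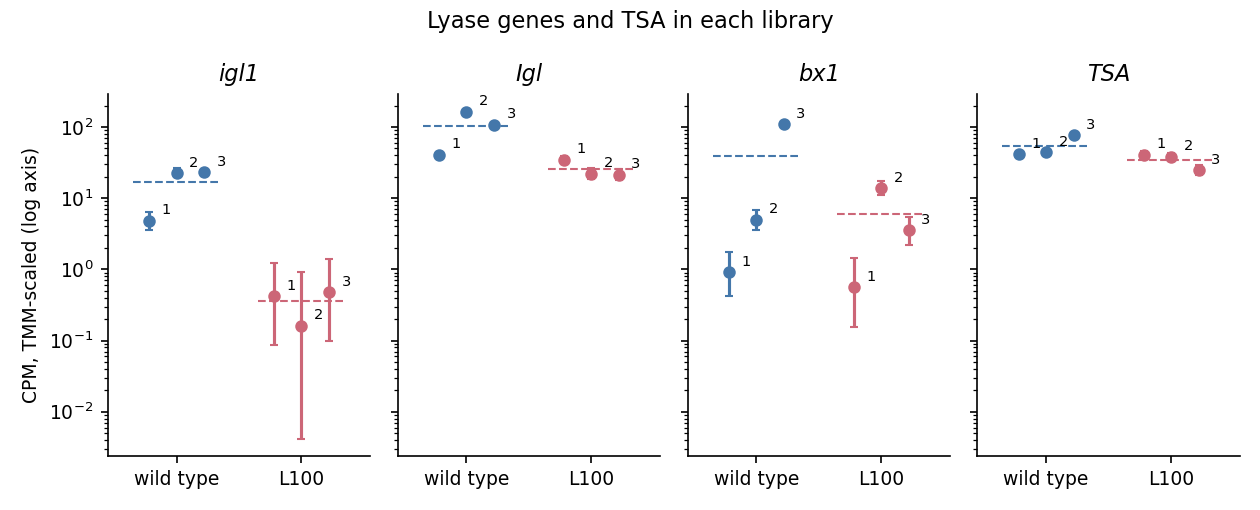
CPM scaled by the trimmed mean of M values (log axis) of igl1, Igl, bx1 and TSA in each library, with the replicate number beside each point, 95% exact Poisson intervals (counting error only) as bars and group means as dashed lines. For igl1 the wild-type libraries lie between 4.83 and 22.96 CPM and the L100 libraries between 0.162 and 0.483 CPM, while for bx1 the libraries of the lines overlap.

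Its neighbour Igl, known here only by the lyase name in the name table, was the more abundant of the pair in every library, per length as well. It was also lower in L100, by less. Igl had 40.9, 164 and 108 CPM in wild type replicates 1 to 3, from 398, 1285 and 1289 counts. L100 replicates 1 to 3 had 34.7, 22.1 and 21.4 CPM, from 248, 136 and 133 counts. The groups did not overlap, but wild type replicate 1 lay only slightly above L100 replicate 1. Their 95% counting intervals, 36.95 to 45.1 and 30.5 to 39.3 CPM, overlapped. The mean was 104 ± 61.7 CPM for wild type against 26.1 ± 7.49 CPM for L100 (SD, n = 3 per group), and the fitted log2 fold change was -2.00 ± 0.50 (SE).

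Because the lower level of igl1 went beyond that of its neighbour, its share of the pair differed between the lines. In wild type, igl1 made up 10.6% of the counts of igl1 and Igl in replicate 1 (95% exact binomial interval 7.86 to 13.8%), 12.2% in replicate 2 (10.5 to 13.95%) and 17.5% in replicate 3 (15.7 to 19.5%). In L100 it made up 1.20% in replicate 1 (0.247 to 3.45%), 0.730% in replicate 2 (0.0185 to 4.0%) and 2.21% in replicate 3 (0.457 to 6.31%). No interval of an L100 library reached that of a wild-type library. This share compares genes within a library, so it does not depend on how libraries were scaled. The means were 13.4 ± 3.65% in wild type and 1.38 ± 0.755% in L100 (SD, n = 3 per group).

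**Figure D2:**
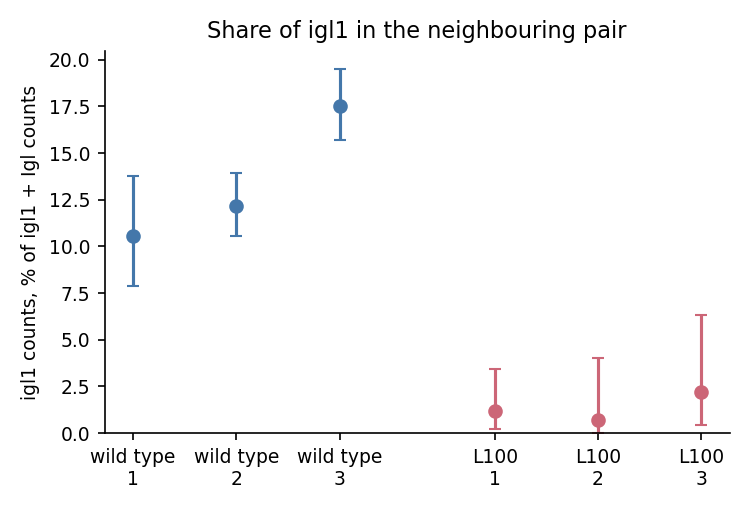
Counts of igl1 as a percent of the counts of igl1 and its neighbour Igl in each library, with 95% exact binomial intervals that cover counting error only. The wild-type libraries lie between 10.6 and 17.5% and the L100 libraries between 0.730 and 2.21%.

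The nearest flanking genes of the pair that have an ID in the files had overlapping levels in the lines. GRMZM2G015892, the third gene before igl1, ranged from 9.80 to 18.4 CPM across wild type and from 10.8 to 15.9 CPM across L100 (edgeR adjusted p = 0.891). The gene ohp1 (GRMZM2G016150), the second after Igl, ranged from 7.08 to 18.8 CPM across wild type and from 10.6 to 12.6 CPM across L100 (edgeR adjusted p = 0.813). In both flanking genes the libraries of the lines overlapped. These neighbours were looked up after the members' values had been seen.

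The third gene, bx1, had most of its counts in a single library. Wild type replicates 1 to 3 had 0.924, 4.98 and 110 CPM, from 9, 39 and 1315 counts. L100 replicates 1 to 3 had 0.560, 13.96 and 3.54 CPM, from 4, 86 and 22 counts. Wild type replicate 3, the library that stood apart above, held 89.2% of all bx1 counts of the 6 libraries, and L100 replicate 2 was the next highest. The groups overlapped: L100 replicates 2 and 3 lay within the range of wild type.

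Spread within a line was wider for bx1 than for nearly any other gene. Its highest wild-type library exceeded the lowest 119-fold, and its highest L100 library exceeded the lowest 25.0-fold. By the standard deviation of log2(CPM + 1), 27 of the 18702 tested genes varied more in wild type and 27 varied more in L100. For comparison, the highest wild-type library exceeded the lowest 4.76-fold for igl1, 4.02-fold for Igl and 1.86-fold for TSA. Wild type replicate 3 decided the direction for bx1: the fitted log2 fold change was -2.70 ± 1.60 (SE) with all libraries and 1.04 ± 1.16 without that library, when the mean of wild type was 2.95 CPM and that of L100 6.02 CPM. With all libraries, the fold change of bx1 was -0.63 in limma-voom with library weights, -1.61 in limma-voom and -1.43 with the replicate number as a block.

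**Figure D3:**
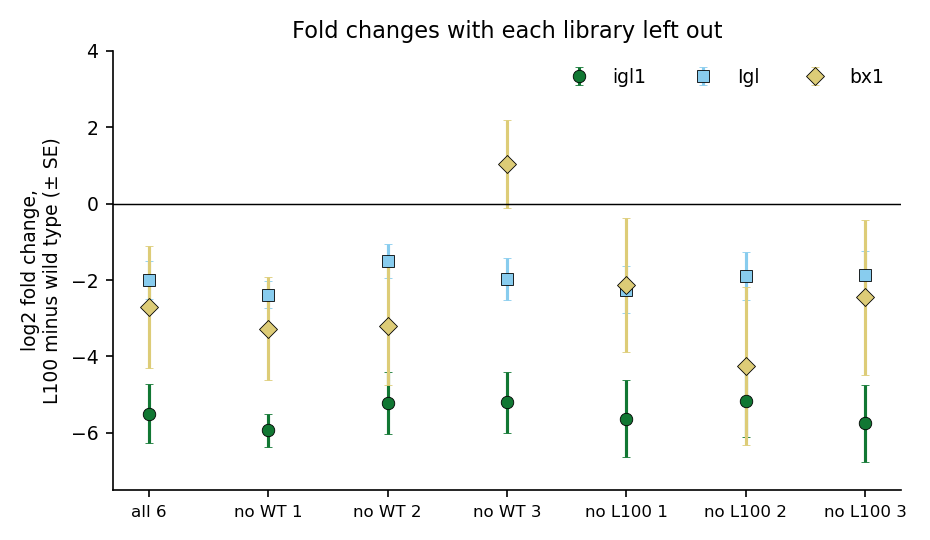
Fitted log2 fold changes (L100 minus wild type, ± SE, edgeR) of igl1, Igl and bx1 with all 6 libraries and with each library left out (WT is wild type). Those of igl1 stay between -5.94 and -5.18 and those of Igl between -2.38 and -1.51, while that of bx1 is 1.04 without wild type replicate 3 and negative in the other fits.

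Over all genes, edgeR called 156 of 18702 tested genes (0.834%) at an adjusted p of 0.05, 97 higher and 59 lower in L100. Scaling by total counts alone gave 83 higher and 88 lower. Of the 3 members, igl1 was called lower, against 0.315% of tested genes called lower. Every L100 library was below every wild-type library in 2 of the members, igl1 and Igl, and in 8.47% of tested genes. Since the members were picked with this contrast known, nothing is read from either count. The call of igl1 was lost without any 1 of the L100 libraries, in limma-voom and with the replicate number as a block, while its log2 fold change stayed between -5.94 and -4.67 in every alternative. DESeq2 called both igl1 and Igl lower, against 1.56% of the genes to which it gave an adjusted p, and edgeR did so without wild type replicate 1, against 0.226%. DESeq2 gave bx1 no adjusted p.

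To set the copies against each other, CPM were divided by the gene length listed in the files. In wild type, Igl had 103 ± 61.1 CPM per kb, bx1 36.5 ± 58.5 and igl1 15.8 ± 9.74 (SD, n = 3). In L100 the values were 25.8 ± 7.41 for Igl, 5.69 ± 6.65 for bx1 and 0.332 ± 0.159 for igl1. Within single libraries, Igl was the highest of the 3 in all 6. The order of the other members changed: igl1 was above bx1 in wild type replicates 1 and 2 and below it in wild type replicate 3 and in all L100 libraries. In wild type replicate 3, Igl at 107 and bx1 at 104 CPM per kb were close to each other, and their 95% counting intervals in CPM, 102 to 114 and 104 to 116, overlapped.

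Summed over the 3 genes, the level per length was lower in every L100 library. Wild type replicates 1 to 3 reached 45.8, 188 and 232 CPM per kb, and the L100 replicates, in order, reached 35.2, 35.2 and 24.96. Wild type replicate 1 was nearer to L100 than to the other wild-type libraries. Igl supplied 73.5 ± 23.8% of the sum in wild type and 81.4 ± 17.9% in L100, and bx1 16.4 ± 24.6% and 17.5 ± 18.3%. The share of igl1 was 10.1 ± 1.05% in wild type and 1.12 ± 0.689% in L100 (SD, n = 3 per group). Between wild-type libraries the share of igl1 moved little, from 9.25 to 11.3%, whereas that of bx1 ran from 1.90 to 44.8%.

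**Figure D4:**
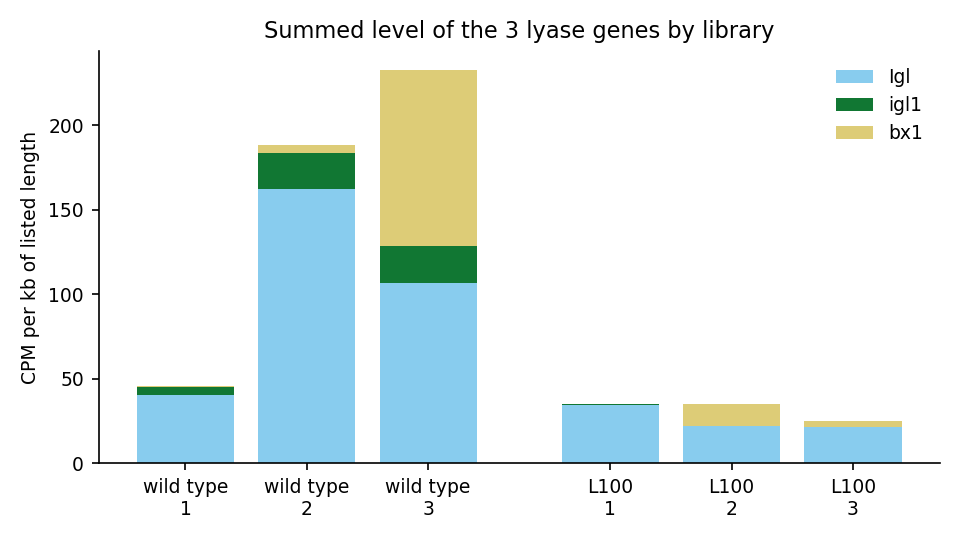
CPM per kb of listed gene length of Igl, igl1 and bx1, stacked for each library. The stacks reach 45.8, 188 and 232 in the wild-type libraries and 24.96 to 35.2 in those of L100, and bx1 takes up 44.8% of the stack of wild type replicate 3.

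The housekeeping relative TSA (GRMZM5G841619) varied less than the 3 lyase genes in wild type. Wild type replicates 1 to 3 had 41.2, 44.6 and 76.6 CPM of it, and the L100 replicates, in order, had 40.9, 38.3 and 24.6 CPM. Every L100 library was below every wild-type library, but by a narrow margin, since wild type replicate 1 and L100 replicate 1 were almost equal. Its log2 fold change of -0.65 ± 0.33 (SE) did not pass (edgeR adjusted p = 0.593). Per length, TSA supplied 48.4, 19.8 and 25.6% of the 4 genes' summed level in the wild-type libraries and 54.7, 53.2 and 50.7% in the L100 libraries. By this measure TSA exceeded the 3 lyase genes together in the L100 libraries and not in those of wild type, but 2 libraries lay near an even split: by deposited FPKM the share in wild type replicate 1 was 51.96%, and by raw counts that in L100 replicate 3 was 49.2%.

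The beta subunit genes, whose products take up indole from TSA, were not lower in L100 by their point estimates. The gene tsb1 (GRMZM2G169593) averaged 75.3 ± 30.4 CPM for wild type against 131 ± 14.3 CPM for L100, and tsb2 (GRMZM2G005024) 74.7 ± 22.6 against 98.3 ± 9.66 CPM (SD, n = 3 per group). The groups did not overlap for tsb1 (46.4 to 107 CPM across wild type, 115 to 143 CPM across L100) and overlapped for tsb2. Neither gene passed (edgeR adjusted p = 0.484 and 0.722). None of the 3 tested genes of the tryptophan branch passed edgeR, DESeq2 or limma-voom, and 1 of them had an unadjusted p under 0.05 in edgeR. The list matched 1 more ID by a symbol, as2, that the name table also gives to the leaf regulator ig1. That gene averaged 0.760 ± 0.671 CPM for wild type against 0.988 ± 0.413 CPM for L100 and was not tested. The chorismate mutase genes cm1 (GRMZM2G028369) and cm2 (GRMZM2G179454), which draw on the same precursor pool, averaged 21.8 ± 6.11 and 19.98 ± 5.26 CPM over the wild-type libraries, against 24.3 ± 1.83 and 22.7 ± 6.58 CPM over those of L100. Their edgeR adjusted p were 0.893 and 0.890, and their point estimates turned negative with scaling by total counts. The third ID of the chorismate list, dhs2 (GRMZM2G703077), was at 0 in every library.

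Of the benzoxazinoid genes after indole, bx2 (GRMZM2G085661), the cytochrome P450 that takes the first step from indole, lies beside bx1 and had its highest level in the same library. Wild type replicates 1 to 3 had 1.64, 7.03 and 28.6 CPM of bx2, and the L100 replicates, in order, had 1.54, 0.325 and 0.643 CPM. As with bx1, wild type replicate 3 was highest, but L100 replicate 2, where bx1 had 86 counts, was the lowest library for bx2. The log2 fold change of -3.85 ± 1.07 (SE) did not pass in edgeR (adjusted p = 0.237) and passed in DESeq2 (adjusted p = 0.00375).

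The later P450 genes bx3 (GRMZM2G167549), bx4 (GRMZM2G172491) and bx5 (GRMZM2G063756) had their lowest wild-type level in replicate 3, where bx1 was highest. In that library they had 86.1, 232 and 193 CPM, against 149.5 to 169, 497 to 614 and 406 to 509 CPM in the other wild-type libraries. The glucosyltransferase gene bx9 (GRMZM2G161335) was likewise lowest there, at 37.6 CPM against 188 and 103. None of these passed (edgeR adjusted p 0.577 to 0.939). The glucosyltransferase gene bx8 (GRMZM2G085054), the nearest protein-coding gene before bx1, ranged from 47.5 to 75.3 CPM across wild type and from 34.7 to 36.4 CPM across L100. Its groups did not overlap, and its edgeR adjusted p was 0.382.

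The beta-glucosidase genes, whose products free the active benzoxazinoids from their glucosides, had higher means in L100. glu1 (GRMZM2G016890) averaged 0.946 ± 0.619 CPM for wild type against 3.64 ± 0.972 CPM for L100 (edgeR adjusted p = 0.322). Its groups did not overlap, with 0.251 to 1.44 CPM across wild type and 2.52 to 4.22 CPM across L100. glu2 (GRMZM2G008247) averaged 312 ± 249.6 against 503 ± 37.1 CPM (edgeR adjusted p = 0.735). Its groups overlapped: wild type replicate 1, at 593 CPM, lay above all L100 libraries, which had 475 to 545 CPM. In all, 8 of the 9 benzoxazinoid IDs found were tested; bx14 (GRMZM2G127418) was below 1 CPM in every library. Of these 8, 6 had a lower and 2 a higher point estimate for L100. Their median log2 fold change was -0.26, beside -0.03 over all tested genes. None passed in edgeR (3 with an unadjusted p under 0.05). Without wild type replicate 1 the balance was 3 lower and 5 higher, and the median was 0.16.

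**Figure D5:**
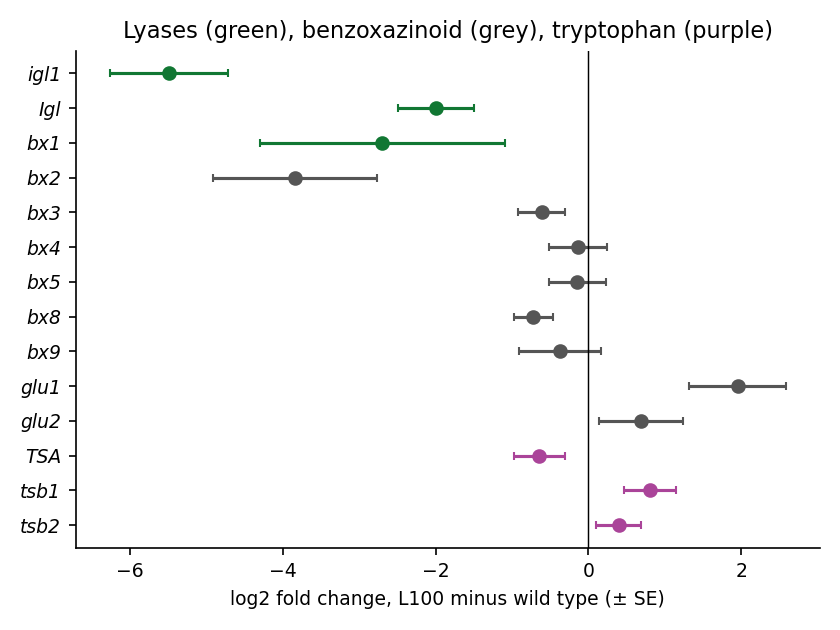
Fitted log2 fold changes (L100 minus wild type, ± SE, edgeR) of the lyase genes (green), of the tested benzoxazinoid genes after indole (grey) and of the tryptophan synthase subunit genes (purple). The values run from -5.50 for igl1 to 1.95 for glu1, and 3 of the 8 grey genes have an unadjusted p under 0.05.

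Among genes of leaf volatiles and wound response, the setting in which indole release is best known, 22 of 32 matched IDs were tested and none was called by edgeR (2 with an unadjusted p under 0.05). The point estimate was lower for 19 of the 22, and the median log2 fold change was -0.46. The balance was 12 lower and 10 higher without wild type replicate 1, and 15 lower and 7 higher in limma-voom. The symbols tps2, tps3, tps4, tps5 and tps9 each matched more than 1 gene, and the tested IDs matched by them all had lower point estimates. The family of these IDs is uncertain, so the balance and the median may not describe volatile and wound genes alone. The lipoxygenase gene lox10 (GRMZM2G015419), which feeds green leaf volatiles, was the most abundant, with a mean of 3149 ± 501 CPM for wild type against 2167 ± 529 CPM for L100 (SD, n = 3 per group; edgeR adjusted p = 0.656). Next was GRMZM2G118462, with 181 ± 77.6 against 171 ± 31.5 CPM (edgeR adjusted p = 0.965). It bears the symbol TPS3, which the name table gives to more than 1 gene, so its family is uncertain. The wound-induced gene wip1 (GRMZM2G156632) and the defence protease gene mir1 (GRMZM2G150276) were at or below 1.12 CPM in every library.

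The 3 genes that came closest to each of igl1, Igl and bx1 over the 6 libraries differed, though igl1 and Igl were also like each other. By Pearson's r of log2(CPM + 1) over the 6 libraries and 13939 genes with a mean of at least 5 CPM, the genes most like igl1 included MYB59 (GRMZM2G093789, r = 0.990) and GRMZM2G328224 (r = 0.987). MYB59, a gene with the name of a transcription factor family, ranged from 6.57 to 15.6 CPM across wild type and from 0.325 to 0.804 CPM across L100. Igl was most like GRMZM2G092627 (r = 0.977), GRMZM2G095905 (r = 0.974) and GRMZM2G368610 (r = 0.969), and of genes with a symbol most like igl1 (r = 0.951).

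Ranking by r with bx1, which had most of its counts in wild type replicate 3, favours genes that peak in that library. The genes most like bx1 were highest there. They were GRMZM2G016858 (r = 0.994), FDX6 (GRMZM2G106190, r = 0.991) and GRMZM2G009792 (r = 0.991), and the next with a symbol was mdh2 (GRMZM2G154595, r = 0.971), by its name a malate dehydrogenase. FDX6, by its name a ferredoxin, had 5.65, 11.6 and 91.0 CPM across the wild-type replicates and 3.36, 19.5 and 11.7 CPM across those of L100, in order. Like bx1, it was highest in wild type replicate 3 and next in L100 replicate 2. In GRMZM2G016858 the libraries ranged only from 31.6 to 42.4 CPM. With bx1 itself, igl1 had an r of 0.469 and Igl of 0.379. These values describe 6 libraries that share 2 lines, and 17 to 65 of the compared genes had an r over 0.95 with a given member.

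The deposited FPKM values (fragments per kb of length, scaled to library size) rested on a fixed length for Igl but not for igl1 or bx1. For Igl and TSA, 1000 of the authors' scaled fragments were worth the same FPKM in every library, 92.2 and 116. For igl1 they were worth 109 to 130 in wild type and 129.8, 69.97 and 155 in the L100 replicates in order, so the length behind its FPKM was not the same in each library. For bx1 they were worth 83.1 in wild type replicate 3 and 83.8 in L100 replicate 2, the libraries where it was highest, and 87.3 to 97.6 elsewhere. By deposited FPKM, igl1 supplied 13.5 ± 2.21% of the 3 genes in wild type and 1.71 ± 1.39% in L100 (SD, n = 3 per group).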

How the data were processed

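RNA from maize leaves was extracted with Trizol and sequenced as Illumina libraries, per the labels' protocols; Bowtie 0.12.2 and the build B73 RefGen_v3 were used, per the submitters' processing notes, and no counting tool is named there. Columns deposited by the authors hold, per the file headers, estimated counts, FPKM, a gene length and scaled fragments, which are a signal in fixed proportion to the counts of a library. The deposited estimated counts were rounded to whole numbers; 0.300% of values were not whole within 0.001. Lengths were multiples of 3 for 88.7% of genes, so they are mostly coding lengths.

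L100 was compared with wild type by edgeR 4.0.16 (quasi-likelihood, TMM scaling, filterByExpr, no block, R 4.3.3), with Benjamini-Hochberg adjustment over 18702 genes. Standard errors are the absolute log2 fold change over the root of F. Such p-values reflect the spread between these libraries, which may be technical. Alternatives were DESeq2 1.42.0, limma-voom 3.58.1, other scalings and filters, a replicate block and each library left out. Symbols came from RefSeq names of a later build (18774 IDs matched). The members and lists were chosen with earlier results of these data known. Named were the members, all tested benzoxazinoid and tryptophan genes, of the other lists the 2 most abundant where none was called, and the genes most like each member, of which 1 is not reported here; flanking genes, wip1, mir1 and IDs that were not tested were added after values were seen. No pair of libraries in a group was the same library sequenced again: the mean chi-square per gene was 13.2 to 109, against about 1 for sampling noise. Separate libraries made from the same RNA or plant could also exceed sampling noise, so this check cannot detect them.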

Additional observations from a re-analysis of the deposited data

How the results depend on the processing

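The number of genes called by edgeR was 156 with all libraries, 570 with DESeq2, 70 with the stricter filter (at least 5 CPM in 3 libraries) and 5 with the replicate number as a block. With each library left out it ran from 0 to 222, with 6 calls without L100 replicate 1 and 0 without L100 replicate 2 or 3, where 1295 and 1282 genes had an unadjusted p under 0.05. Of the members, 1 was called lower as reported, 2 with DESeq2, 0 with limma-voom, 0 with limma-voom and library weights and 0 with the replicate block; with 1 library left out the number ran from 0 to 2. Neither DESeq2 nor the fit with the stricter filter gave bx1 an adjusted p. The log2 fold change of bx1 was 1.04 without wild type replicate 3 and ran from -4.25 to -2.13 without each other library, and it was -0.63 in limma-voom with library weights, -1.61 in limma-voom and -1.43 with the block, against -2.70 as reported. Benzoxazinoid calls numbered 1 with DESeq2 (bx2) and 0 in the other fits, and those of the volatile list 1 without wild type replicate 2 (GRMZM2G038153, higher in L100, edgeR adjusted p = 0.00628) and 0 otherwise. GRMZM2G038153 had 0.924, 97.2 and 0.503 CPM in wild type replicates 1 to 3 and 79.9 to 102 CPM across L100. The share of igl1 in wild type was 10.1% per kb and 13.5% by deposited FPKM. By Spearman's rho, 20 to 36 genes tied at a rho of 1 with each member, among them 1 of the 3 genes most like igl1 by r, 2 of those for Igl and 1 of those for bx1; with ties ordered by gene ID, 0 of the 3 stood in the first 3. Same-numbered libraries deviated together with r = 0.384, 0.348 and 0.0146 for numbers 1 to 3. Differently numbered pairs ran from r = -0.406 (wild type replicate 2, L100 replicate 1) to 0.074 (wild type replicate 3, L100 replicate 1). Numbers 1 and 2 thus lay above every differently numbered pair, and number 3 lay within their range. This check does not settle whether the numbers pair the samples. The reported fit used no block, and the fit with the block is given beside it. Planned sequence comparisons of the lyase relatives were not run.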
